A study of Rattus norvegicus with 8 samples.

Results

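The transcripts described here encode the amino acid transporter families of the array: every gene spot whose name in the scanner files begins with Slc1a, Slc3a, Slc6a, Slc7a, Slc36a, Slc38a or Slc43a. These were 76 probes of 61 gene names, out of 30367 gene probes, and they filled 130 of the 42877 gene spots on each array. The rule uses gene names and no measured value, but it was chosen with earlier results of these data known. The arrays were 8 Agilent 2-colour rat arrays. On each one, RNA of castrated adult male Wistar rats treated with testosterone propionate (an androgen in a long-acting ester form) was hybridised together with RNA of castrated control rats. The treated rats received a single subcutaneous dose of 4 mg/kg in 1 mL/kg corn oil, and RNA was taken 8 h (4 arrays) or 24 h (4 arrays) later; age is given as 120 ± 12 days for all groups. Castration is common to the treated and the control rats. The sources used here do not give whether the controls received oil, whether 1 array holds 1 animal or a pool, or whether the same control RNA served both times, and no muscle is named although the series title speaks of muscle. If the dye-swapped arrays repeat the same extracts, the p-values below are too small.

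Amino acid transporters decide which amino acids enter and leave a cell. Many work as exchangers: the heavy chain Slc3a2 (4F2hc, CD98) carries light chains of family 7 to the membrane, where Slc7a5 and Slc7a8 swap large neutral amino acids such as leucine, and Slc7a6 swaps cationic amino acids such as arginine for neutral ones with sodium. Sodium-coupled members of family 38 load cells with glutamine and alanine, which the exchangers then use, and in skeletal muscle leucine uptake is known to feed the mTORC1 pathway that drives protein synthesis. Slc36a1 of family 36 and Slc38a9 are found on lysosomes. Slc43a1 and Slc43a2 of family 43 let large neutral amino acids leave by facilitated diffusion. Family 6 carries creatine, taurine, betaine and neurotransmitters as well as amino acids.

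Each array value came from a 60-base oligonucleotide printed on the slide, so a result is a result for that stretch of the transcript. The array files give probe positions on rn4, which are used here. The first 30 bases, 5′ to 3′, are shown for the probes on which the results below turn and for the neighbour of Slc7a6, whose reading bears on that of Slc7a6.
Slc38a2, chr7:135365535-135365594, minus strand: attccccctaaattttcttaactgcatttt
Slc7a6, chr19:36049145-36049204, plus strand: gcagtatgtctacactagattgtacaacta
Slc7a6os, chr19:36051099-36051158, minus strand: ctgctatcaccatacagtgtgtatgaatgt
Slc7a8, chr15:32800977-32801036, minus strand: gagctagaaccttaatcgtctgtcgctgag
Slc38a4, chr7:135693025-135693084, minus strand: tgggatgttagtctgaggaattaacgagat
Slc43a1, chr3:68083249-68083308, plus strand: tcatggactggcgcatcaaggactgcgtgg
Without a genome of this build, the probes were not placed in exons or untranslated regions.

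Most of the transporter probes gave no signal that stood clear of background. A probe was kept for testing when 3 or more of the 4 arrays had it well above background in treated or in control RNA, at 8 h or at 24 h; 22 of the 76 probes, for 21 gene names, met this, as did 12074 of all 30367 gene probes. A total of 48 transporter probes were not well above background on any array in either RNA. All 4 probes of family 43 were kept, as were 4 of 12 of family 38, 7 of 23 of family 6, 4 of 20 of family 7, 2 of 10 of family 1, 1 of 2 of family 3 and 0 of 5 of family 36. Among the probes never above background were those of Slc7a5, Slc7a7, Slc7a11 (the cystine exchanger), Slc38a1, Slc38a3, Slc1a4 and Slc7a2. Slc36a1, a lysosomal proton-coupled transporter, was above background on 1 treated and 1 control array at 8 h and on 0 arrays at 24 h. Of the 22 kept probes, 6 met the rule through 1 RNA alone: Slc7a6, Slc7a1 and Slc38a10 through treated RNA, and Slc6a11, Slc6a20 and the second probe of Slc43a2 through control RNA. For the probes never or seldom above background the arrays give only an upper bound on the signal and no change could be tested. One kept probe, Slc7a6os, carries the prefix but is no transporter: it is the neighbour of Slc7a6 on the other strand.

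**Figure D1:**
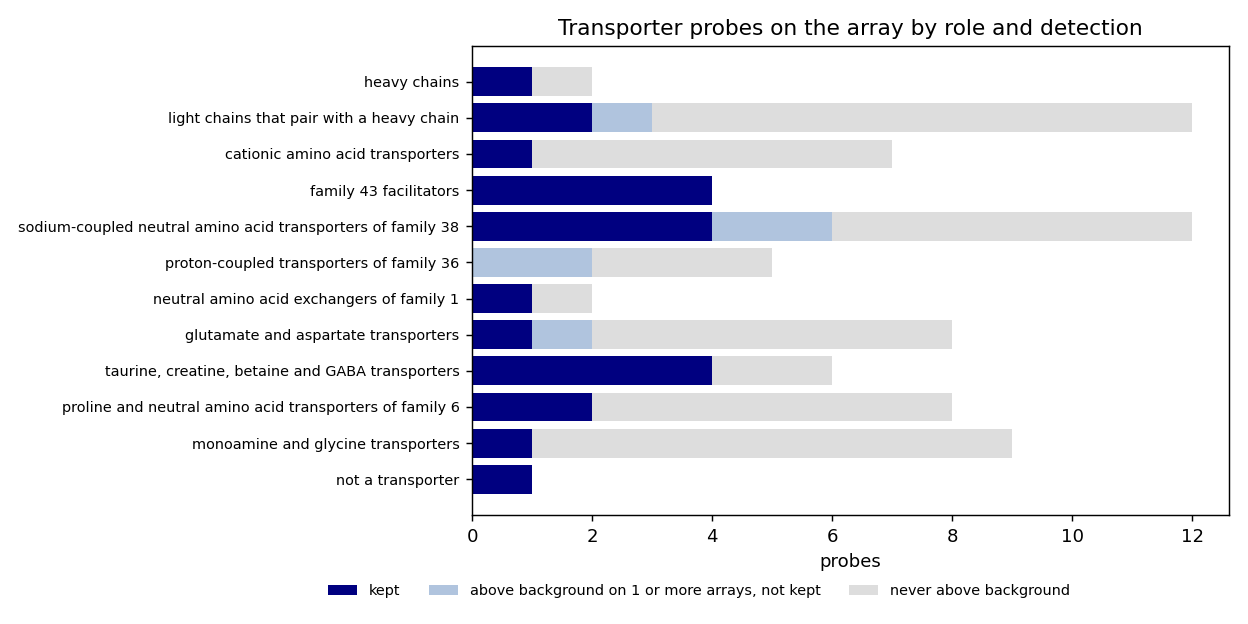
The bars count the 76 transporter probes by role; dark blue marks probes kept for testing, light blue those above background on 1 or more arrays but not kept, and grey those never above background. All 4 family 43 probes are dark blue, the family 36 bar (5 probes) has none, and grey makes up 48 of the 76 probes.

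The labelled tissue could be checked only against markers. Of 13 skeletal muscle fibre genes listed, 12 were kept (Myh2 was not), and 0 of 6 prostate and epithelial markers were kept. The 4 arrays of each time lay on 1 slide and were scanned together, and slide therefore cannot be told apart from time. At 8 h the treated RNA carried Cy3 on replicates 1 and 2 and Cy5 on replicates 3 and 4, and at 24 h the reverse. The first 8 h array stood apart in spread: the SD of its log2 ratios over all kept probes was 0.437, against 0.180 to 0.198 on the other 8 h arrays and 0.235 to 0.303 on the 24 h arrays. Across probes, which are not independent replicates, the log2 ratios of the second 8 h array correlated at 0.275 with replicate 1, which has the same dye on the treated RNA, and at -0.12 and -0.036 with replicates 3 and 4; the other pairs of 8 h arrays correlated between 0.295 and 0.371. Results that change without either array are given so below. The treated RNA had more probes well above background than the control RNA on every array except the second of 8 h, with 34.6% to 44.9% of probes in treated RNA and 32.8% to 38.9% in control RNA.

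Across the families the response was small at both times, and the transporter with the smallest adjusted p was Slc38a2 at 8 h and Slc7a6 at 24 h. In limma's fit over all kept probes, with Benjamini-Hochberg adjustment over all of them and a threshold of 0.05, 0 of the 22 transporter probes passed at 8 h, when 0.0249% of all tested probes passed (3 of 12069). At 24 h, 0 of 22 passed, when 6.9% of all tested probes did (833 of 12073). For the difference between times (24 h minus 8 h), 1 of 22 passed, that of Slc38a2, against 1.28% of all tested probes (155 of 12069). At an unadjusted p under 0.05 the same limma fit held 6 transporter probes at 8 h (27.3%, against 16.9% of all probes), 5 at 24 h (22.7%, against 22% of all) and 4 for the difference (18.2%, against 16.1% of all). Their median log2 ratio, treated over control, was -0.09 at 8 h (all probes -0.01) and -0.00 at 24 h (all probes 0.00), and the 22 ratios ran between -0.30 and 0.47 at 8 h and between -0.27 and 0.37 at 24 h. Ratios had the same sign on all 4 arrays for 10 of the 22 probes at 8 h (3 higher and 7 lower, 45.5%, against 21.4% of all probes) and for 9 at 24 h (4 higher and 5 lower, 40.9%, against 28.9% of all).

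**Figure D2:**
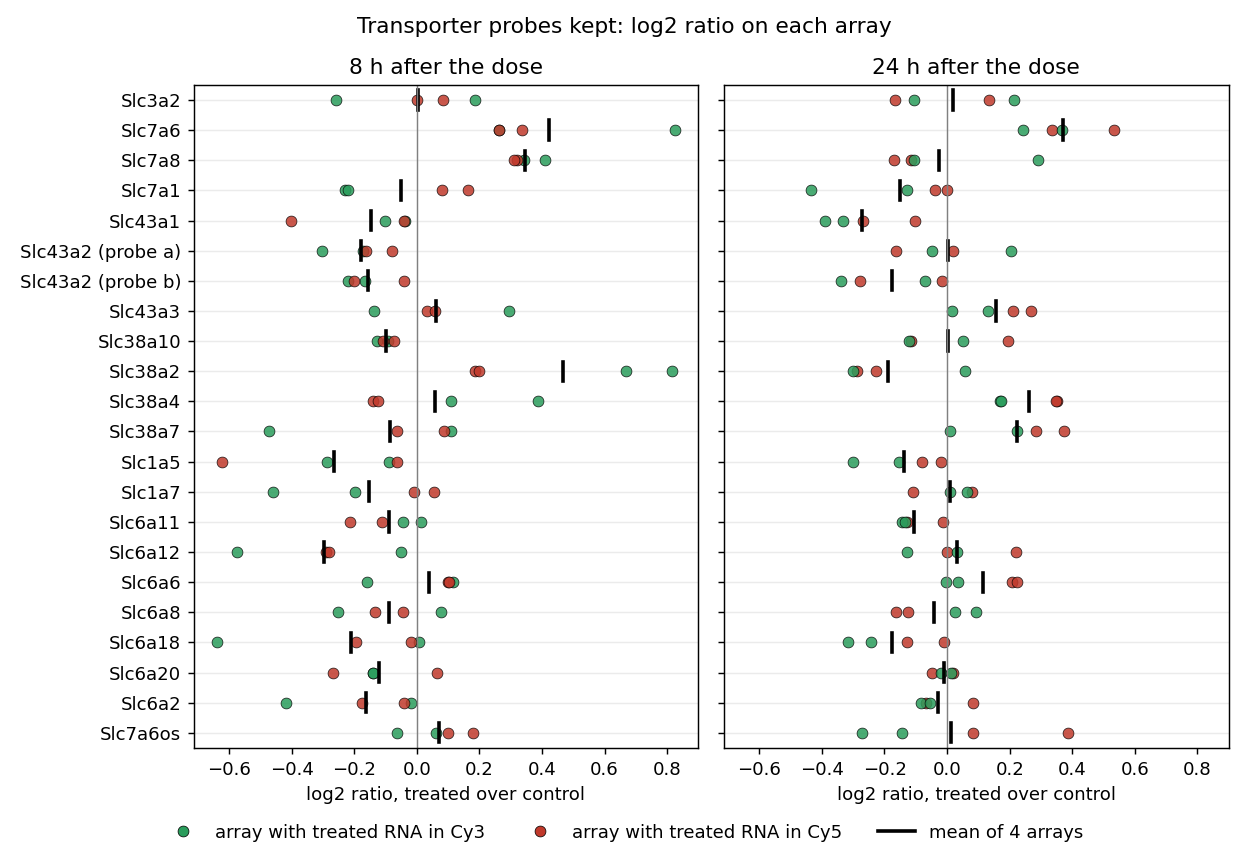
Each point is 1 array: the log2 ratio, treated over control, of 1 kept probe, at 8 h in the left panel and 24 h in the right; colour gives the dye of the treated RNA and the black bar the mean of 4 arrays. Slc7a6 lies to the right of 0 on all 8 arrays, Slc38a2 and Slc7a8 on all 4 arrays of 8 h, and Slc43a1 to the left of 0 on all 8.

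Among the exchangers built on Slc3a2, Slc7a6 was the one whose signal stood above background in treated RNA and not in control RNA. It is printed as 10 spots per array, which share the array's RNA and count as 1 value. In treated RNA, 10, 10, 10 and 9 of the 10 Slc7a6 spots were well above background on the 8 h arrays and 10 of 10 on each of the 24 h arrays. In control RNA, 2, 2, 0 and 0 of the 10 Slc7a6 spots were well above background at 8 h, and 0, 3, 1 and 0 at 24 h. Taking a probe as above background where 5 or more of its 10 spots are, it was above background in treated RNA on 8 of 8 arrays and in control RNA on 0 of 8. Of the 12074 kept probes it was the only 1 with that pattern (0.00828%), and 0 had the reverse. The pattern counted is the one that Slc7a6 itself shows, so this count is a description and lends no support to a change. A probe printed as 1 spot is scored on that spot alone. The flag is set within each dye channel, so raw signals of the 2 RNAs are not judged against 1 limit. On the second 8 h array the raw Slc7a6 signal was 53.2 in treated RNA (Cy3, local background 36.1), with 10 of 10 spots flagged. In control RNA of that array it was 59.3 (Cy5, local background 38.7), with 2 of 10 flagged. Treated RNA also had more probes above background on every array except the second of 8 h.

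The normalised log2 levels of Slc7a6 at 8 h were 6.88, 6.35, 6.42 and 6.50 in treated RNA, against 6.05, 6.09, 6.16 and 6.17 in control RNA. At 24 h the Slc7a6 levels were 6.71, 6.61, 6.31 and 6.48 in treated RNA, against 6.18, 6.27, 6.06 and 6.12 in control RNA. The groups did not overlap at either time, and the first 8 h array was the highest. The probe was kept through treated RNA alone, the RNA in which it is higher, so its being on the higher side is in part fixed by the filter. Since the control signal is only bounded, each dim control value was set to the lowest signal among probes well above background on its array or to its own value, whichever was higher. On that basis the mean over 4 arrays was 1.34-fold higher in treated RNA at 8 h and 1.29-fold higher at 24 h. That lowest signal is not the detection limit of the Slc7a6 probe, so these folds are not strict lower bounds. The 8 h value is the same as with the dim signal at face value, so the replacement bounded nothing there. These folds hold for the measured means and leave out the spread between arrays. The 95% interval of the fitted log2 ratio was 0.20 to 0.64 at 8 h and 0.15 to 0.59 at 24 h. The fitted log2 ratio, which takes the dim control signal at face value, was 0.42 at 8 h (SD 0.27, n = 4 arrays, limma adjusted p = 0.271) and 0.37 at 24 h (SD 0.12, n = 4 arrays, limma adjusted p = 0.0563), so neither passed; the difference between times was -0.05 (95% interval -0.37 to 0.26).

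The fitted size for Slc7a6 depended on the background correction. In the scanner's own processed signals, which are linear intensities after its background and dye correction, Slc7a6 had 583, 196, 152 and 198 units in treated RNA at 8 h, against 111, 63.6, 51.3 and 43.8 in control RNA. At 24 h these signals of Slc7a6 were 355, 292, 194 and 250 units in treated RNA, against 77.4, 112, 87.9 and 61.0 in control RNA. On these signals, and with a normexp offset of 10 in place of 50, the fitted ratios were larger and fell under the threshold at both times, but against a control signal that is not above background they measure neither a size nor a change. Over all 18 alternatives the adjusted p of Slc7a6 ran between 0.0244 and 0.849 at 8 h and between 0.00302 and 0.29 at 24 h, with the same limit. It was under the threshold in 3 of them at 8 h, 1 of which left out the second 8 h array (adjusted p = 0.0244), and in 7 of them at 24 h, 2 of which left out the first (adjusted p = 0.00799) or the second (adjusted p = 0.0374) array of 8 h. Without the second 8 h array 1300 of all probes passed at 8 h, against 3 with all arrays. At 24 h 1312 of all probes passed without the first 8 h array and 1183 without the second, against 833 with all arrays.

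The neighbour Slc7a6os, whose probe lies 1894 bases beyond that of Slc7a6 on the opposite strand, had log2 ratios of 0.06, -0.06, 0.10 and 0.18 at 8 h and 0.39, 0.08, -0.27 and -0.14 at 24 h. Its mean ratios were 0.07 (adjusted p = 0.665) and 0.01 (adjusted p = 0.955), with arrays on both sides of 0. Across the 8 arrays, the 5 genes whose ratios followed those of Slc7a6 most closely among 8506 kept genes with a symbol were Atp6v1f (Pearson r = 0.987), Phpt1 (0.976), Myadml2 (0.972), P4hb (0.965) and Orai1 (0.964). These correlations are a description over 8 points that share array and dye, and their ratios were smaller, at 0.12 and 0.09 for Atp6v1f at 8 h and 24 h.

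Slc7a8, the LAT2 light chain, was higher in treated RNA at 8 h by nearly the same amount on every array. Its log2 levels at 8 h were 7.66, 7.61, 7.52 and 7.44 in treated RNA, against 7.32, 7.20, 7.20 and 7.12 in control RNA. At 24 h the Slc7a8 levels were 6.98, 6.94, 7.12 and 6.89 in treated RNA, against 7.15, 7.05, 6.83 and 7.00 in control RNA. The 8 h groups did not overlap and the 24 h groups did. The Slc7a8 ratio was 0.35 at 8 h (SD 0.05, n = 4 arrays, 95% interval 0.17 to 0.52) and did not pass (limma adjusted p = 0.238). Without the second 8 h array it did (0.35, adjusted p = 0.0409), but so did 1300 of all probes, against 3 with all arrays. At 24 h its ratio was -0.03 (SD 0.21, n = 4, adjusted p = 0.899), and the difference between times, -0.37 (SE 0.11), did not pass either (adjusted p = 0.126).

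The heavy chain itself showed no shift that stood out from the spread of its arrays. Slc3a2 had log2 ratios of -0.26, 0.19, 0.00 and 0.08 at 8 h and 0.14, -0.17, 0.21 and -0.11 at 24 h. Its means were 0.00 (95% interval -0.20 to 0.21) and 0.02 (95% interval -0.19 to 0.23), with adjusted p = 0.985 and 0.945 in limma. Of the cationic transporters, only 1 of the probes of Slc7a1 (CAT-1, which carries arginine and lysine) was kept. It was well above background on 3 treated and 2 control arrays at 8 h, and on 1 treated and 2 control arrays at 24 h. Its ratios were -0.23, -0.22, 0.08 and 0.16 at 8 h (mean -0.05, adjusted p = 0.726) and 0.00, -0.04, -0.13 and -0.44 at 24 h (mean -0.15, adjusted p = 0.246), and at each time the arrays with treated RNA in Cy3 were the lower ones.

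Slc38a2, the SNAT2 carrier of system A, was the 1 transporter whose response differed between the times: it was on the higher side in treated RNA at 8 h and on the lower side at 24 h. Its log2 levels at 8 h were 8.03, 7.59, 7.68 and 7.74 in treated RNA, against 7.22, 6.93, 7.50 and 7.54 in control RNA. At 24 h the Slc38a2 levels were 7.24, 7.16, 7.04 and 7.44 in treated RNA, against 7.53, 7.39, 7.35 and 7.38 in control RNA. The groups did not overlap at 8 h, where all 4 arrays were positive, and at 24 h 3 of 4 arrays were negative.

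The Slc38a2 log2 ratio was 0.47 at 8 h (SD 0.32, n = 4 arrays, limma adjusted p = 0.175) and -0.19 at 24 h (SD 0.17, n = 4 arrays, limma adjusted p = 0.242). The difference, 24 h minus 8 h, was -0.66 (SE 0.12, 95% interval -0.93 to -0.38) and passed (limma adjusted p = 0.0374), while neither time did alone. At 8 h the Slc38a2 ratios split by dye: 0.82 and 0.67 on the arrays with treated RNA in Cy3, and 0.19 and 0.20 on those with treated RNA in Cy5. Without the dye coefficient the difference did not pass (adjusted p = 0.0908), and it passed in 8 of 18 alternatives, over which it ran between -0.99 and -0.54 with adjusted p between 0.0255 and 0.434. Leaving out any 1 array except the second of 8 h ended the call (adjusted p between 0.0596 and 0.113 in those 7 fits). Without the second 8 h array the ratio at 8 h passed as well (0.45, adjusted p = 0.0268), as did 1300 of all probes, against 3 with all arrays.

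The medians of the fibroblast and macrophage markers had the opposite signs over the same arrays: lower at 8 h and higher at 24 h, except for the fibroblast median of the third 8 h array. The 9 fibroblast probes kept had a median log2 ratio of -0.61, -0.42, 0.02 and -0.18 on the 4 arrays of 8 h and 0.47, 0.61, 0.77 and 0.57 on those of 24 h. The 12 macrophage and monocyte probes kept had medians of -0.64, -0.20, -0.10 and -0.14 at 8 h and 0.21, 0.31, 0.50 and 0.16 at 24 h. In limma's fit, 5 of the 9 fibroblast and 5 of the 12 macrophage probes rose at 24 h, when 6.9% of all probes passed, and 0 at 8 h. For the difference between times, 5 of the 9 fibroblast and 3 of the 12 macrophage probes passed as higher, when 1.28% of all probes passed. The 5 fibroblast probes were those of the collagens Col1a1 (2 probes), Col1a2 and Col3a1 and of Postn; the other 4, of Dcn, Pdgfra, Dpt and Lum, stood at -0.00, -0.03, -0.05 and -0.25 at 24 h and did not pass. The macrophage probes that rose at 24 h were those of C1qa, C1qc, Cd163, Lyz2 and 1 of 2 of Aif1. The other 7 did not pass at 24 h. Of these, Csf1r stood at -0.03 and 0.08 on its 2 probes, Itgam at -0.10, Cd68 at -0.02 and Adgre1 at 0.05. C1qb stood at 0.37 and the other probe of Aif1 at 0.51. Adgre1 was above background on 0 arrays of 24 h. The log2 of the summed fibroblast signal ranged from 12.3 to 12.7 in treated RNA and 12.5 to 13.3 in control RNA at 8 h, and from 13.3 to 14.0 in treated RNA and 12.3 to 12.8 in control RNA at 24 h. The log2 of the summed macrophage signal ranged from 12.0 to 12.7 in treated RNA and 12.4 to 12.9 in control RNA at 8 h, and from 12.6 to 13.0 in treated RNA and 12.2 to 12.5 in control RNA at 24 h. Of the 7 endothelial probes, Kdr was called at 24 h (0.36, adjusted p = 0.0412), with list medians of -0.10 at 8 h and 0.01 at 24 h. Muscle fibre, adipocyte and erythrocyte lists also had shifted medians. The 12 muscle fibre probes had a median of -0.05 at 8 h and -0.38 at 24 h. Myh1 stood at -1.55 at 8 h (adjusted p = 0.15) and rose by 1.33 at 24 h (adjusted p = 0.0213). Its difference between times, 2.88, passed (adjusted p = 0.00958). At 24 h Acta1 (-0.44, adjusted p = 0.0219) and Actn3 (-0.55, adjusted p = 0.0394) fell. The log2 of the summed muscle fibre signal at 8 h ranged from 17.6 to 18.1 in treated RNA and 17.6 to 18.1 in control RNA. At 24 h it ranged from 17.5 to 17.7 in treated RNA and 17.9 to 18.1 in control RNA. The 4 adipocyte probes had medians of -0.16 and 0.38, with Fabp4 called at 24 h (0.43, adjusted p = 0.00378), and the 6 erythrocyte probes had medians of -0.57 and 0.45, with 0 called. Of the defining markers, Fap, Ptprc, Cd14 and Mrc1 were not kept. The part of these cells in the Slc38a2 difference was not tested, and with whole-tissue RNA fewer cells of a type and less RNA per cell cannot be told apart.

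**Figure D3:**
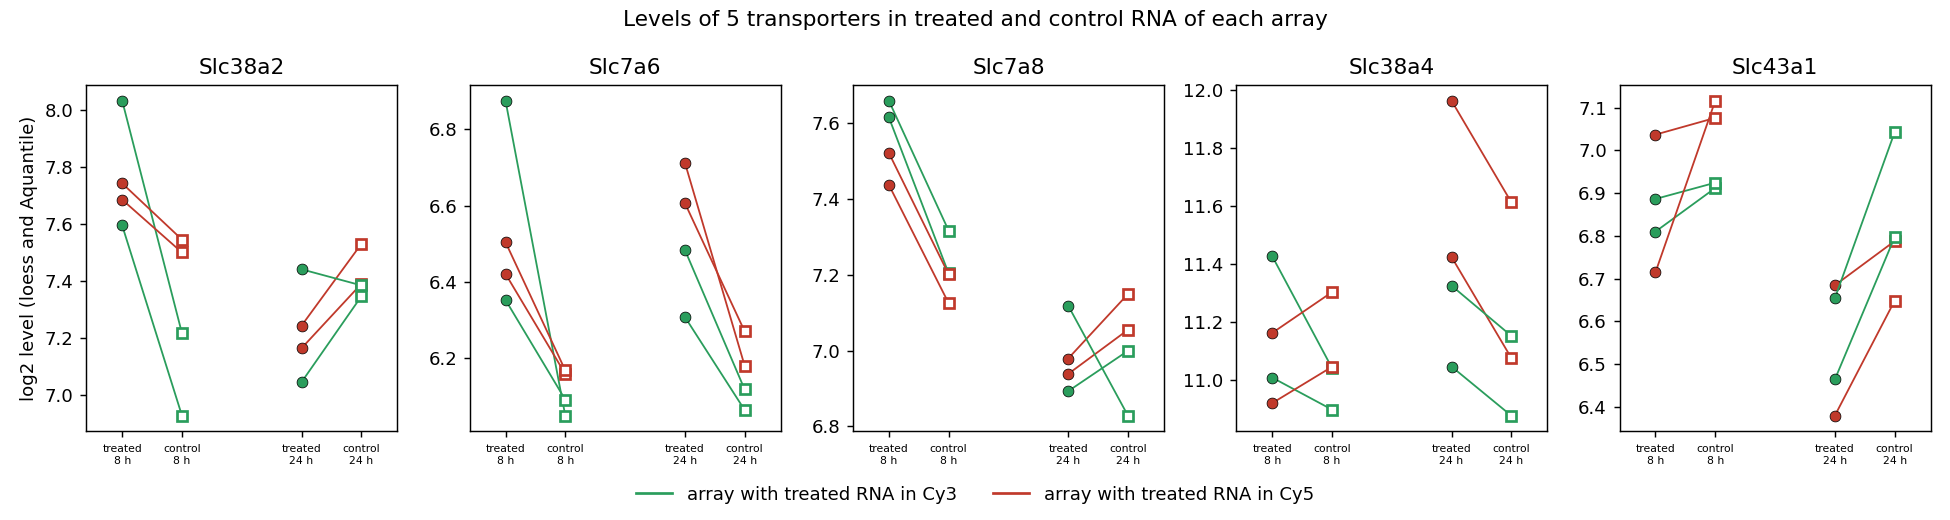
Normalised log2 levels (vertical axis, its range set for each gene) in treated RNA (filled circles) and control RNA (open squares), with a line joining both RNAs of an array and colour for the dye of the treated RNA. For Slc7a6 every circle lies above every square at both times; for Slc38a2 and Slc7a8 that holds at 8 h only.

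Slc38a4, another system A carrier, was on the higher side in treated RNA at 24 h. Its log2 levels there were 11.96, 11.43, 11.05 and 11.33 in treated RNA, against 11.61, 11.08, 10.88 and 11.15 in control RNA; these groups overlapped, but within each array treated was above control. The Slc38a4 ratios were 0.35, 0.35, 0.17 and 0.17 at 24 h (mean 0.26, SD 0.10, n = 4, limma adjusted p = 0.127) and 0.11, 0.39, -0.14 and -0.13 at 8 h (mean 0.06, SD 0.25, n = 4, adjusted p = 0.769). On both slides the arrays divided by dye into a higher and a lower pair, with Cy3 on the treated RNA of the higher pair at 8 h and Cy5 at 24 h. At 24 h it passed when the 24 h arrays were fitted alone (adjusted p = 0.0287) or with array weights (adjusted p = 0.0298). Of all probes, 1710 and 1638 passed in those fits, against 833 in the main fit.

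Slc38a7, which exports glutamine from lysosomes, had ratios of 0.37, 0.28, 0.22 and 0.01 at 24 h (mean 0.22, 95% interval 0.01 to 0.43, adjusted p = 0.195) and -0.47, 0.11, -0.06 and 0.09 at 8 h (mean -0.08, adjusted p = 0.656). Slc38a10 had ratios of -0.13, -0.09, -0.07 and -0.11 at 8 h (mean -0.10, adjusted p = 0.482), all on 1 side of 0. Only 2 treated and 2 control arrays of 8 h had it well above background, so these ratios lie near the floor of the measurement. Its mean at 24 h was 0.00, where 3 treated and 0 control arrays had it well above background. The probe of Slc38a9, the lysosomal arginine sensor, was not above background on any array.

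In family 43, the facilitators Slc43a1 and Slc43a2 had mean ratios between -0.27 and 0.00, none of which passed. Slc43a1 (LAT3) had log2 levels of 6.81, 6.89, 7.04 and 6.71 in treated RNA at 8 h, against 6.91, 6.92, 7.08 and 7.12 in control RNA. At 24 h the Slc43a1 levels were 6.38, 6.68, 6.46 and 6.65 in treated RNA, against 6.65, 6.79, 6.80 and 7.04 in control RNA. All 8 arrays had treated below control, though the groups overlapped. The Slc43a1 ratio was -0.15 at 8 h (SD 0.17, n = 4, limma adjusted p = 0.378) and -0.27 at 24 h (SD 0.12, n = 4, limma adjusted p = 0.0813). At 24 h it passed with an offset of 10 (-0.47, adjusted p = 0.0473) and when the 24 h arrays were fitted alone (adjusted p = 0.0285). Of all probes, 915 and 1710 passed in those fits, against 833 in the main fit. When median centring stood in for loess, the 8 h ratio of Slc43a1 was 0.03.

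The 2 probes of Slc43a2 (LAT4) both lay below control on all 4 arrays of 8 h. Their means at 24 h were 0.00 and -0.18, and whether the probes differ was not tested. The second was kept through control RNA alone, with 2 treated and 3 control arrays above background at 8 h and 1 treated and 0 control arrays at 24 h, so its ratios lie near the floor of the measurement. At 8 h the first probe had ratios of -0.30, -0.17, -0.08 and -0.16 (mean -0.18, adjusted p = 0.286) and the second had -0.22, -0.17, -0.04 and -0.20 (mean -0.16, adjusted p = 0.315). At 24 h the first probe of Slc43a2 had 0.02, -0.16, 0.20 and -0.05 (mean 0.00, adjusted p = 0.99) and the second had -0.02, -0.28, -0.34 and -0.07 (mean -0.18, adjusted p = 0.203). Slc43a3, which carries purine nucleobases rather than amino acids, had ratios of 0.21, 0.27, 0.02 and 0.13 at 24 h (mean 0.16, adjusted p = 0.299) and a mean of 0.06 at 8 h (adjusted p = 0.716).

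**Figure D4:**
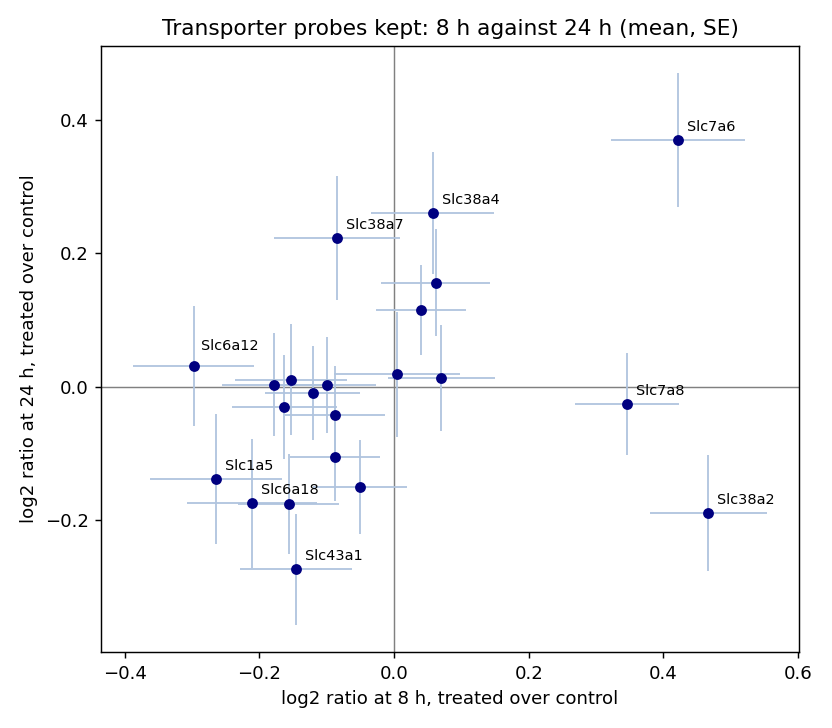
Log2 ratio, treated over control, at 8 h (horizontal) and 24 h (vertical) of the 22 kept probes, as fitted means with standard errors; genes beyond 0.2 at either time are named. Slc7a6 sits apart at 0.42 and 0.37, and Slc38a2 at 0.47 and -0.19 is the 1 probe whose change between times passed the test.

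Slc1a5 (ASCT2), which brings in glutamine in exchange for other neutral amino acids, was below control on all 8 arrays. Its ratios were -0.29, -0.09, -0.06 and -0.62 at 8 h (mean -0.26, SD 0.26, n = 4, adjusted p = 0.273) and -0.08, -0.02, -0.15 and -0.30 at 24 h (mean -0.14, SD 0.12, n = 4, adjusted p = 0.475). The fourth 8 h array was the lowest by far, and under median centring the 24 h ratio of Slc1a5 was 0.04. Of the glutamate carriers, 1 probe of Slc1a7, known from the retina, was kept, with means of -0.15 at 8 h (adjusted p = 0.357) and 0.01 at 24 h (adjusted p = 0.966); its second probe was never above background.

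Family 6 held the widest mix of substrates and no probe that passed. Slc6a12, the betaine and GABA carrier, had ratios of -0.57, -0.05, -0.29 and -0.28 at 8 h (mean -0.30, SD 0.21, n = 4, limma adjusted p = 0.271) and 0.22, 0.00, -0.13 and 0.03 at 24 h (mean 0.03, adjusted p = 0.895). Its 8 h levels did not overlap: 6.57, 6.93, 6.75 and 6.76 in treated RNA, against 7.15, 6.98, 7.04 and 7.04 in control RNA. Without the second 8 h array the Slc6a12 ratio passed at 8 h (-0.42, adjusted p = 0.0172), as did 1300 of all probes, against 3 with all arrays.

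Slc6a8, the creatine carrier, had ratios of -0.25, 0.08, -0.13 and -0.05 at 8 h (mean -0.09, adjusted p = 0.551) and -0.16, -0.13, 0.03 and 0.09 at 24 h (mean -0.04, adjusted p = 0.806). Its direction depended on the scaling: under median centring its means were 0.32 at 8 h and 0.34 at 24 h, neither passing. Slc6a6, the taurine carrier, had ratios of -0.16, 0.12, 0.10 and 0.10 at 8 h (mean 0.04, adjusted p = 0.781) and 0.21, 0.22, -0.00 and 0.03 at 24 h (mean 0.12, adjusted p = 0.365).

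Slc6a18, a neutral amino acid transporter known from the kidney, had ratios of -0.64, 0.01, -0.02 and -0.19 at 8 h (mean -0.21, adjusted p = 0.304) and -0.13, -0.01, -0.24 and -0.32 at 24 h (mean -0.17, adjusted p = 0.339). A second Slc6a18 probe was never above background. Without the second 8 h array the 8 h ratio of the first Slc6a18 probe passed (-0.34, adjusted p = 0.0352), as did 1300 of all probes, against 3 with all arrays. Over the 19 alternatives this 8 h ratio ran between -0.35 and 0.06, so its sign did not hold in all of them. Slc6a2, the noradrenaline carrier of nerve endings, had ratios of -0.42, -0.02, -0.17 and -0.04 at 8 h (mean -0.16, adjusted p = 0.315) and a mean of -0.03 at 24 h (adjusted p = 0.879). A second probe of Slc6a2 was never above background. Slc6a11, a GABA carrier, had -0.01, -0.13, -0.14 and -0.14 at 24 h (mean -0.10, adjusted p = 0.416), with 0 control arrays well above background there, and a mean of -0.09 at 8 h (adjusted p = 0.501). Slc6a20, a proline carrier, had means of -0.12 at 8 h (adjusted p = 0.385) and -0.01 at 24 h (adjusted p = 0.966). It was well above background on 2 treated and 3 control arrays at 8 h, and on 2 treated and 2 control arrays at 24 h.

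The amino acid response, in which the factor ATF4 induces transporters and synthesis enzymes when amino acids run short, was read from 21 kept genes of 33 listed. At 8 h 0 of them passed, and at 24 h 2 rose and 3 fell, when 6.9% of all probes passed, with a median of -0.05 at 8 h and 0.00 at 24 h. Gpt2, an alanine aminotransferase, rose by 0.54 at 24 h (SD 0.22, adjusted p = 0.00728). Phgdh, the first enzyme of serine synthesis, was above background at 24 h on 4 treated and 0 control arrays (adjusted p = 0.0282). With dim control values set as for Slc7a6, its mean was 1.16-fold higher in treated RNA. This fold is not a strict lower bound and leaves out the spread between arrays. The mean levels of Phgdh were 6.38 in treated RNA and 6.11 in control RNA. Ppp1r15a, whose product directs the dephosphorylation of eIF2α, fell by 0.68 at 24 h (SD 0.32, adjusted p = 0.00534). It stood at 0.20 at 8 h, and its difference between times, -0.89, passed (adjusted p = 0.0235). At 24 h Cebpb fell by 0.62 (SD 0.32, adjusted p = 0.0351) and Chac1, a glutathione-degrading enzyme, by 0.45 (SD 0.10, adjusted p = 0.00825). Atf4 itself had ratios of 0.71, 0.15, 0.27 and 0.39 at 8 h (mean 0.38, adjusted p = 0.271) and a mean of 0.05 at 24 h (adjusted p = 0.833). Asns, Trib3, Psat1 and Psph were not kept. This list and those below were chosen with earlier results of these data known, so their counts are a description.

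Of the genes that signal amino acid supply to mTORC1, 24 were kept with 27 probes; 0 passed at 8 h, and at 24 h 2 rose and 2 fell (median 0.04), when 6.9% of all probes passed. Rps6kb1, the S6 kinase, rose by 0.41 (adjusted p = 0.0291). Sec13, a coat protein that is also part of the GATOR2 complex, had a ratio of 0.31 (adjusted p = 0.0357), but it was kept through treated RNA alone, with 4 treated and 2 control arrays above background at 24 h, and was called in 9 of 18 alternatives. Flcn, which helps to activate the Rag GTPases on lysosomes, fell by 0.61 (adjusted p = 0.00379), and 1 probe of Nprl2 fell by 0.41 (adjusted p = 0.0344) while its other probe stood at -0.18 (adjusted p = 0.227). Transporters of other families, with 5 genes and 6 probes kept of 19 genes listed, had 0 called at either time. The closest to passing was the mitochondrial aspartate-glutamate carrier Slc25a12 at 24 h, with 1 probe at -0.25 (adjusted p = 0.0523) and another at -0.21 (adjusted p = 0.309).

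Enzymes that use branched-chain amino acids, glutamine and related amino acids were read from 36 listed genes. Of 27 kept genes (28 probes), 0 probes passed at 8 h, and at 24 h 2 rose and 4 fell, when 6.9% of all probes passed, with medians of 0.05 at 8 h and -0.11 at 24 h. Aldh4a1, a mitochondrial enzyme of proline breakdown, fell by 0.69 (SD 0.19, n = 4 arrays, adjusted p = 0.000381). Its difference between times, -0.73, passed as well (adjusted p = 0.00823). Bcat2, the mitochondrial branched-chain aminotransferase, fell by 0.45 (adjusted p = 0.0125) and 0.33 (adjusted p = 0.0405) on its 2 probes, and Mccc1, of leucine breakdown, by 0.39 (adjusted p = 0.026). Bcat1, the cytosolic aminotransferase, had a ratio of 0.35 (adjusted p = 0.0227), which ran between 0.28 and 1.30 over the alternatives; it was kept through treated RNA alone, with 4 treated and 2 control arrays above background at each time. Gpt2 is in this list too. Glul, glutamine synthetase, stood at 0.29 at 8 h (adjusted p = 0.271) and -0.25 at 24 h (adjusted p = 0.128).

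Among 10 kept genes (11 probes) listed as acting on transporters or their transcription, 0 probes passed at 8 h, and at 24 h 1 rose and 3 fell (median 0.03), when 6.9% of all probes passed. The list is broad, and its count is not a measure of amino acid transporter regulation. Xpr1, 1 of the 3 that fell, is itself a phosphate exporter. Klf15 is listed for amino acid breakdown, and Txnip is known for glucose transporters. Klf15, a glucocorticoid-induced factor that promotes branched-chain amino acid breakdown, fell by 1.10 at 24 h (SD 0.13, n = 4 arrays, adjusted p = 4.25e-05) and stood at -0.36 at 8 h (adjusted p = 0.206); its difference between times, -0.75, passed (adjusted p = 0.00922). Sgk1, a kinase that raises transporter abundance at the membrane, fell by 0.49 (adjusted p = 0.0165) and Xpr1, a phosphate exporter, by 0.31 (adjusted p = 0.0315). Txnip, an arrestin that promotes internalisation of glucose transporters, had 24 h ratios of 1.29, 1.11, 0.40 and -0.02 (mean 0.70, SD 0.61, adjusted p = 0.00418). The higher pair had Cy5 on the treated RNA, and the Txnip call was lost without the dye coefficient (adjusted p = 0.083). Of the 18 list probes called at 24 h, 0 changed sign in any of the 19 alternatives that measured them (the strict filter measured 15), and Klf15 passed in all 19. Median centring left 5 of the 6 higher and 1 of the 12 lower calls (Klf15), and leaving out 1 array of 24 h left 6 to 11 of the 18. The 24 h values of these lists shared their arrays with the fibroblast, macrophage, muscle fibre, adipocyte and erythrocyte markers given above, and the part of those cells in them was not tested.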

How the data were processed

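Trizol-extracted total RNA was labelled with the Quick Amp chemistry, according to the labels. Per the submitters' processing notes, the authors used Agilent Feature Extraction 9.5.3.1. Per the file headers, the deposited mean signals and local backgrounds of the spots are unnormalized linear intensities. The deposited processed signals are background-corrected, dye-corrected intensities, per the file headers. The deposited value table holds log2 ratios, with scale and direction unstated; over all gene spots they matched the treated over control ratio of the processed signals with a largest difference of 1.4e-05 and column medians between -0.144 and 0.0896, so no centring had been added.

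Signals were corrected by normexp (offset 50) and normalised by loess within arrays in limma 3.58.1 (R 4.3.3). Outlier-flagged spots (731 to 927 per array) were dropped, the spots of a probe averaged and ratios turned to treated over control. No kept transporter probe had a saturated spot or lost an array. Levels are log2 channel signals after loess and Aquantile, and are not compared between probes. The limma fit (lmFit, eBayes) took all 8 arrays, with terms for 8 h, 24 h and dye. Tests were two-sided and adjusted p-values (Benjamini-Hochberg) run over all kept probes; a sentence that gives an adjusted p without a tool means this fit. The fit was tested on simulated data. Named genes were those past the threshold, 17 set by name where kept, and up to 6 others per time with the largest ratio of one sign. The labels do not say that replicate numbers pair the arrays, and they were not taken as pairs: deviations of same-numbered arrays from their group means correlated between -0.257 and 0.173, and residuals after the dye term between 0.196 and 0.334. Same-numbered arrays carry opposite dyes, which lowers the first, and the dye term leaves them an equal dye contrast, which raises the second. By accession, 71 of the 76 probes matched the reference gene table. The members and gene lists were chosen with earlier results of these data known. The number of arrays limits the precision. The probe sequences of Slc43a2 are not reported here.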

Additional observations from a re-analysis of the deposited data

Results flagged for a closer look

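Of 44 groups of 4 arrays (22 probes at 2 times), 4 held 1 array far from the other 3 by Dixon's test, where chance flags about 1 in 20 groups. They were the 8 h log2 ratios of Slc7a6, where replicate 1 stood at 0.83 and the others between 0.26 and 0.34, and of Slc6a6, where replicate 1 stood at -0.16 and the others between 0.10 and 0.12. At 24 h they were those of Slc7a8, where replicate 3 stood at 0.29 against -0.17 to -0.11, and of Slc6a11, where replicate 1 stood at -0.0115 against -0.14 to -0.13. The difference between times passed the test for Slc38a2 at -0.66 (limma adjusted p = 0.0374), with the sign positive on 4 of 4 arrays at 8 h and negative on 3 of 4 at 24 h.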

How the results depend on the processing

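Transporter probes past the threshold at 8 h numbered 0, and 1 with the scanner's processed signals or an offset of 10 (Slc7a6 in both, kept through treated RNA alone). At 24 h they numbered 0, but 1 with processed signals, 2 with an offset of 10, 3 with that time's arrays alone, 2 with array weights and 1 with the replicate block. For the difference they numbered 1, but 0 with processed signals, median centring or no dye coefficient. Leaving out 1 array gave 0 to 5 at 8 h, 0 to 1 at 24 h and 0 to 2 for the difference. Without the second 8 h array, the 5 were Slc38a2, Slc6a12, Slc6a18, Slc7a6 and Slc7a8, and the 2 were Slc38a2 and Slc6a12. All probes past the threshold at 8 h (3) numbered 0 with median centring or that time alone, 22 with an offset of 10, 1 without the dye coefficient, 8 with the replicate block, and 0 to 1300 leaving out 1 array, the highest without the second. At 24 h the 833 became 437 with median centring, 1710 with that time alone, 1638 with array weights, 920 with the replicate block, and 208 to 1312 leaving out 1 array (the lowest without the first 24 h array, the highest without the first 8 h array). The 155 for the difference became 83 with processed signals, 0 with median centring, 305 with array weights, 342 with the replicate block, and 33 to 629 leaving out 1 array (the lowest without the first 24 h array, the highest without the second 8 h array).

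Median centring moved the median of all probes to 0.119 at 8 h and 0.153 at 24 h, and the share of 24 h calls that were higher to 95.7% (418 higher, 19 lower), against 60.1% (501 higher, 332 lower) with loess. It gave 24 h ratios of 0.0511 for Slc38a2, 0.0422 for Slc1a5, 0.0685 for Slc6a2, 0.0799 for Slc6a18 and 0.34 for Slc6a8, and 8 h ratios of 0.0299 for Slc43a1 and 0.32 for Slc6a8, all opposite in sign to those reported and, apart from Slc6a8, below that shift. Processed signals gave -0.15 for Slc6a12 at 24 h. The median of the transporter probes was -0.22 with processed signals and 0.0401 with median centring at 8 h (-0.12 to -0.05 leaving out 1 array), and -0.11 and 0.10 at 24 h (-0.0449 to 0.0132 leaving out 1 array). A value under the threshold that changed sign by less than 1 SD was counted as unchanged. Calls of the pathway lists under the same alternatives were counted after seeing the data. The causes were not tested. By deviations from the group means, 1 of 8 arrays correlated best with its own number. The replicate block left the Slc38a2 difference called, brought Slc7a6 under the threshold at 24 h (adjusted p = 0.0336) and ended the calls of Phgdh, Sec13 and Xpr1. Signal over background is a limit: 54 of 76 transporter probes could not be tested.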
